A study of Mus musculus with 48 samples.

Results

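Pyramidal cells of ventral CA1 were compared with granule cells of the ventral dentate gyrus (DG), 3 RNA sequencing libraries against 3, out of 48 libraries from 16 populations of mouse hippocampal neurons. The members were all 37620 Ensembl gene rows of the authors' count table, without the 92 ERCC spike-in rows and the 5 summary rows. Of these genes, 12853 had enough reads to be tested and 24767 did not. Per the labels, single populations were purified by picking fluorescent neurons by hand out of microdissected slices, and their total RNA was amplified with a NuGEN Ovation kit after ERCC RNA had been added. The groups are named only by region, pole and cell class: ventral CA1 pyramidal cells and ventral DG granule cells, and for comparison the dorsal cells of both classes, with 3 libraries each. The 3 libraries of a population are described as biological replicates. Which fluorescent marker was used, how many mice were pooled, and the mice's strain, age and sex were not used here.

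The cells stand at opposite ends of the hippocampal circuit. Granule cells receive the perforant path from entorhinal cortex and send mossy fibres, rich in zinc, to CA3, and they are among the few neurons that are born in adult life. CA1 pyramidal cells receive the Schaffer collaterals of CA3 and carry the output of the hippocampus to the subiculum and cortex, and from the ventral pole also to amygdala, nucleus accumbens and prefrontal cortex. Both use glutamate as transmitter.

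The ventral CA1 libraries held 7545745, 5116568 and 8354457 gene reads and the ventral DG libraries 15707975, 14761798 and 16469376, so 3 reads in a library were worth 0.348 to 0.552 CPM (gene reads scaled to a common library size by TMM factors) in CA1 and 0.163 to 0.193 CPM in DG. Between 14974 and 15517 genes had a read in CA1 libraries and between 16943 and 18048 in DG libraries. ERCC RNA took 2.72% to 8.29% of gene and ERCC reads in CA1 and 0.969% to 1.33% in DG. Reads outside annotated genes made up 20.8% to 30.4% in CA1 and 41.1% to 46.7% in DG, and the mitochondrial genome 11.3% to 12.9% and 15.8% to 20.7% of gene reads. These shares did not overlap between the groups, and their part in any difference between the groups cannot be told apart from the cell class. Library profiles correlated at 0.944 to 0.965 within a population and at 0.844 to 0.86 between the populations (Pearson's r of log2 CPM across genes, which are not independent replicates).

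Genes that define each class were checked first. They were chosen with earlier results of these data known, so their levels describe the groups and are no independent test of the labels. Prox1, the homeobox factor that fixes granule cell identity, was at 2.76, 2.21 and 3.59 CPM in CA1 and 1282, 1356 and 1451 CPM in DG, 479-fold higher in DG (log2 difference, CA1 minus DG, -8.90 ± 0.17 SE, adjusted p = 4.65e-14). Glis3, a zinc finger factor, was at 0.125, 0 and 0 CPM in CA1 and 77.1, 85.7 and 85.9 CPM in DG. No DG library came near a CA1 library in either gene. Dsp, which encodes the junction protein desmoplakin, was at 0.125, 0.184 and 0.116 CPM in CA1 and 18.7, 25.1 and 31.3 CPM in DG and so separated the groups too, at a level far below the 367 CPM of dorsal DG. In the other direction, Fibcd1, a receptor for acetylated carbohydrates, was at 223, 286 and 405 CPM in CA1 and 0.163, 0.0644 and 1.73 CPM in DG (433-fold, adjusted p = 3.98e-05). Mpped1, a metallophosphoesterase, was at 201, 230.0 and 279 CPM in CA1 and 0.381, 0.322 and 0.503 CPM in DG (553-fold, adjusted p = 6.67e-12). All 5 genes were at their high level in each library of the labelled class and low in each library of the other. In bulk samples like these, fewer cells of a type and less RNA per cell cannot be told apart.

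**Figure D1:**
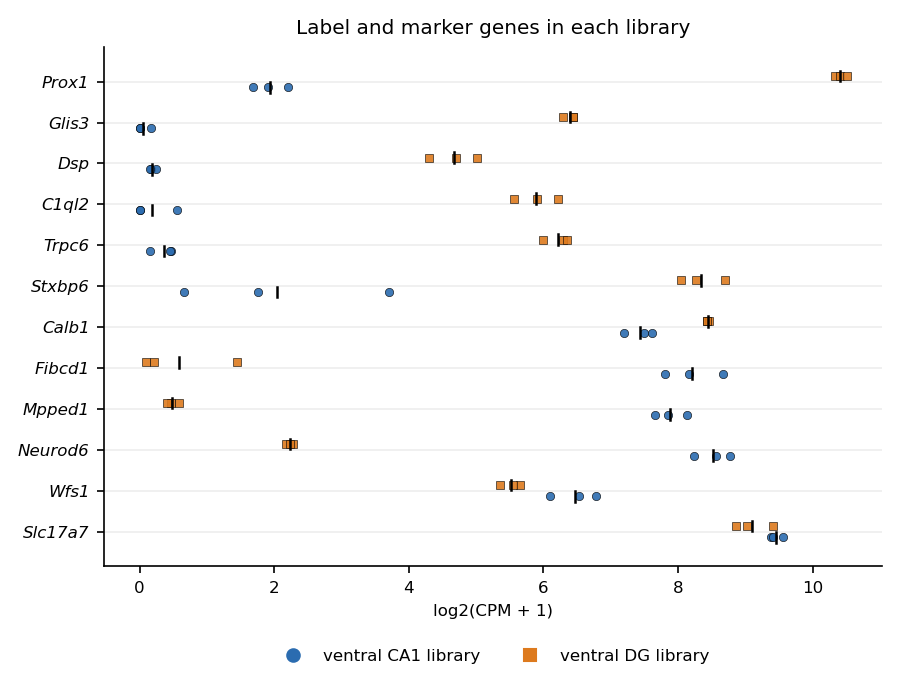
Read counts scaled to CPM in each of the 6 libraries for label and marker genes, on a log2(CPM + 1) axis; circles are ventral CA1 libraries and squares ventral DG libraries, and the short bars are group means on that axis. CA1 and DG symbols fall apart for every gene drawn except Slc17a7, the vesicular glutamate transporter of both classes.

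The sequences before the transcription starts are shown for the label genes Prox1, Glis3 and Fibcd1 and for Neurod6, a marker described below. They are the 250 bases upstream of the RefSeq start in build GRCm38.p6, 5′ to 3′ on the strand the table gives for the gene. For Glis3, Fibcd1 and Neurod6 the bases after the start were found in the gene's GENCODE transcripts in that orientation; no GENCODE transcript of Prox1 covers its window, so its orientation is taken from the table. Capitals mark the GC box GGGCGG, which binds Sp factors, and the E-box CAGATG, a letter order read by NeuroD factors, each searched on both strands. The motifs share no bases with each other.
Prox1, chr1:190170828-190171077, minus strand, the first of 2 promoters listed: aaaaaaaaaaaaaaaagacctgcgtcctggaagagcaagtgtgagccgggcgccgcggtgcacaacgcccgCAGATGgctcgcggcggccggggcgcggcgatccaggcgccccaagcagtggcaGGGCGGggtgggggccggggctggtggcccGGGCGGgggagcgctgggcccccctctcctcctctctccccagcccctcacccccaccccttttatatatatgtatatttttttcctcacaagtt
Glis3, chr19:28680078-28680327, minus strand: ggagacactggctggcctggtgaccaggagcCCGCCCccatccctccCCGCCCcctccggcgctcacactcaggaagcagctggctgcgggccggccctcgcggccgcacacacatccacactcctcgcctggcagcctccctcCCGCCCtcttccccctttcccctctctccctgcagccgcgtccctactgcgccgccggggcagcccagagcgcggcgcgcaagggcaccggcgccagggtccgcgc
Fibcd1, chr2:31846006-31846255, minus strand: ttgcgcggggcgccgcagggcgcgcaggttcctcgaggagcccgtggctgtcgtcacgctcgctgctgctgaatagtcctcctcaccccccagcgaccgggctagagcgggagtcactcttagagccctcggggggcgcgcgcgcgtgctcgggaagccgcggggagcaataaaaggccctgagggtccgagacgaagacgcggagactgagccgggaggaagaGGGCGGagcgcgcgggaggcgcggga
Neurod6, chr6:55681264-55681513, minus strand: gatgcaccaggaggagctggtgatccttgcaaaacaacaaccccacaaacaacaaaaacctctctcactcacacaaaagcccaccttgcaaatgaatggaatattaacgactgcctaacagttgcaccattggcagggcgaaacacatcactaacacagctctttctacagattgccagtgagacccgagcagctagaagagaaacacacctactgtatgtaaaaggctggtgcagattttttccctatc
Prox1 held 2 GC boxes and 1 E-box in this window, Glis3 3 GC boxes, Fibcd1 1 GC box, and Neurod6 neither. G and C made up 64.8% of the Prox1 window, 75.6% of that of Glis3, 71.6% of that of Fibcd1 and 46% of that of Neurod6. Among the 27025 genes with a promoter in the RefSeq table, 32.9% held GGGCGG and 14.5% CAGATG in such a window. Among the 9500 tested genes matched by symbol the shares were 59.8% and 9.39%. Of 1303 matched genes higher in CA1, 62.5% held GGGCGG and 10.1% CAGATG. Of 1256 matched genes higher in DG, 58.7% held GGGCGG and 10.2% CAGATG. The shares of both directions were thus near those of all tested genes.

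The marker lists followed the label genes. Of 12 tested CA1 pyramidal markers, 11 were higher in CA1 and none in DG, against 13.2% and 13.7% of all 12853 genes tested, and the median log2 difference was 4.22, against -0.05 over all genes. The count of CA1 markers higher in DG was 0 also at an unadjusted p under 0.05 in edgeR and with DESeq2. Neurod6, a basic helix-loop-helix factor of pyramidal neurons, was at 377, 435 and 301 CPM in CA1 and 3.54, 3.87 and 3.69 CPM in DG. Wfs1, the wolframin of the endoplasmic reticulum and a marker of dorsal CA1, differed by 1.94-fold only (89.5 ± 20.99 against 44.9 ± 4.74 CPM), with 1403 CPM in dorsal CA1. The exception was Ndst4, at 47.6 against 44.4 CPM. Of 18 granule cell markers, 16 were higher in DG (median log2 difference -5.47), among them the complement-like C1ql2 (0.155 ± 0.268 against 59.5 ± 13.5 CPM), the cation channel Trpc6 (0.287 ± 0.148 against 73.5 ± 9.67 CPM) and the release regulator Stxbp6 (12.03, 2.39 and 0.579 CPM in CA1 and 263, 412 and 308 CPM in DG). Lpl, lipoprotein lipase, was the one granule marker higher in CA1, at 69.4 ± 28.2 against 13.9 ± 3.72 CPM. Calb1, the calcium buffer calbindin, was 2.06-fold higher in DG at 178, 145 and 195 CPM in CA1 and 342, 351 and 344 CPM in DG and did not overlap between the groups.

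Markers of young granule cells and dividing cells were mostly higher in DG, 6 of 9 tested, with 1 higher in CA1 (median log2 difference -2.20). Over all genes tested the shares were 13.7% and 13.2%. Mki67, a protein of dividing nuclei, was at 9.65, 2.21 and 3.01 CPM in CA1 and 37.96, 47.2 and 50.6 CPM in DG. Neurod1, a factor of newborn granule cells, was at 11.4, 19.9 and 22.1 CPM in CA1 and 67.01, 92.3 and 78.1 CPM in DG. The groups did not overlap in either gene, which was a condition for naming them. Top2a, Nes, Eomes and Sox2, which mark dividing cells and progenitors, had too few reads to be tested, with DG means of 0.408, 0, 0 and 0 CPM. Tubb3, a tubulin of young and mature neurons, went the other way at 109 ± 23.3 against 20.8 ± 9.102 CPM.

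Other cell types left few reads. Of 11 microglia markers none had enough reads to be tested, and Cx3cr1 and C1qa had no read in any of the 6 libraries, nor had the endothelial Cldn5. The 13 endothelial and mural markers summed to 3.498 to 15.2 CPM in CA1 and 4.51 to 12.2 CPM in DG, with Rgs5 the one called, at 7.98 ± 5.16 against 0.2403 ± 0.252 CPM. The 10 astrocyte markers summed to 383 to 500.2 CPM in CA1 and 647 to 765 CPM in DG, almost all of it Slc1a2 (422 ± 63.9 against 673 ± 58.6 CPM), a glutamate transporter that hippocampal neurons also transcribe. Gfap, Aldh1l1 and Gja1 were at 0 in all CA1 libraries, and in DG at 0.599, 0 and 0 CPM. Of the 13 oligodendrocyte markers, Mbp made up most of the sum of 49.7 to 70.2 CPM in CA1 and 103 to 110.1 CPM in DG, while Olig2, Sox10 and Pdgfra had no read. The 18 interneuron markers summed to 115 to 155 CPM in CA1 and 224 to 235 CPM in DG, with Pvalb at 0 and 0.102 CPM, Vip, Lhx6 and Dlx5 at 0 in both, and Sst at 1.43 against 0 CPM. Of the mossy cell markers, Drd2 was at 0 against 0.916 CPM and Calb2 at 0.593 against 3.82 CPM; Calb2 was called with all 6 libraries and not without any single one of them, with adjusted p-values up to 0.119. In calls, 4 of 6 tested astrocyte markers, 2 of 3 oligodendrocyte markers and 4 of 8 interneuron markers were higher in DG, and 2 interneuron markers were higher in CA1. Among all genes tested, 13.7% were higher in DG and 13.2% in CA1.

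Markers of the neighbouring hippocampal neurons were mixed. Of 8 tested CA3 markers, 3 were higher in CA1 and 3 in DG, beside 13.2% and 13.7% of all genes tested. Their sum in CA1, 1013 to 1134 CPM, was mostly Dkk3 and Cpne7 (286 ± 17.4 against 35.1 ± 9.49 CPM). In DG the sum was 217 to 304 CPM, of which Dkk3 was a small part at 11.6 ± 2.44 CPM. Iyd, a defining CA3 gene, was at 0 in all CA1 libraries and at 8.81, 5.67 and 8.28 CPM in DG. Of 7 CA2 markers, 2 were called, both higher in DG, Pcp4 (15.4 ± 6.41 against 60.8 ± 14.5 CPM) and Stard5 (2.27 ± 1.56 against 18.1 ± 5.23 CPM), with sums of 68.5 to 88.7 and 113 to 149 CPM. Of 6 tested mossy cell markers, 3 were higher in CA1 and 1 in DG, and their sum of 2481 to 2676 CPM in CA1 and 63.8 to 82.3 CPM in DG was mostly Sv2b in CA1. Of 3 tested subiculum markers, Nts, neurotensin, was higher in CA1 (5.86 ± 2.29 against 0.09502 ± 0.0265 CPM) and Slc17a6 and Tle4 were higher in DG. The part of other neurons in these levels was not tested.

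Across all genes, 3466 of 12853 were called at an adjusted p under 0.05 (27%), 1700 of them higher in CA1 (13.2%) and 1766 higher in DG (13.7%). Of all genes tested, 5439 (42.3%) had groups of libraries that did not overlap. The 191 called genes named here did not overlap either, but this is no result. The naming rule required it, and genes outside the rule were named after their values were seen. A called difference of at least 4-fold was found for 1202 genes (9.35%), of which 417 were higher in CA1 and 785 in DG. Genes higher in DG differed by more and were less abundant: their median absolute log2 difference was 1.77 and their median level in DG 36.5 CPM, against 1.14 and 89.9 CPM in CA1 for the genes higher there. Among the 785, 78 had no read in any CA1 library, and among the 417, 20 had none in any DG library. CA1 libraries were the shallower ones, and the part of depth in this count was not tested gene by gene; with the 6 libraries thinned to equal depth, 3257 genes were called. Of the named genes called here, 15 were not called in a fit that also held the CA3 and dorsal libraries (18 in all), which estimates 1 spread for all groups: Calb1, Calb2, Chgb, Chrna4, Chrna7, Dcn, Gabrd, Htr1a, Kcnc4, Mbp, Nr4a2, Oprm1, Pam, Rbp4 and Wfs1. Protein-coding genes made up 99% of annotated genes higher in CA1, 92.3% of those higher in DG and 94.1% of all tested. Long intergenic and antisense RNAs together made up 0.412%, 3.62% and 2.54%. The median genomic span was 36.8 kb for genes higher in CA1 and 44.7 kb for genes higher in DG, against 22.3 kb for genes not called.

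**Figure D2:**
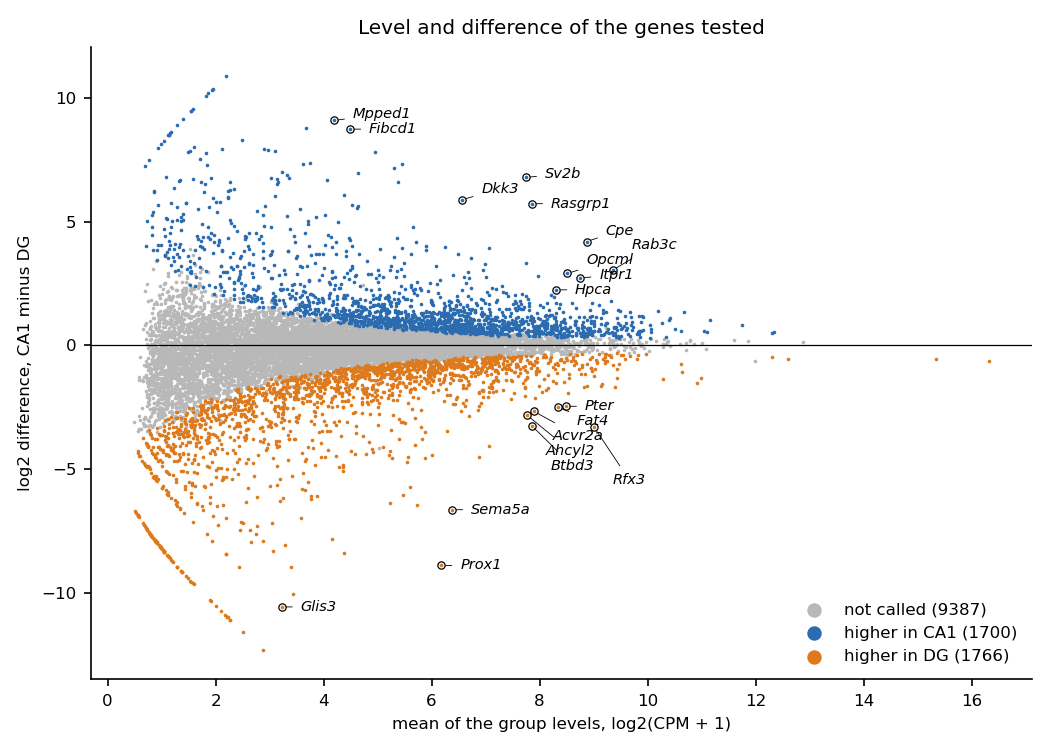
Each point is 1 of the 12853 genes tested, with the mean level of both groups in log2(CPM + 1) on the x axis and the log2 difference, CA1 minus DG, on the y axis; blue points are the 1700 genes called higher in CA1, orange the 1766 called higher in DG, grey the rest. Named genes are those of highest level among differences of at least 4-fold, and label genes; differences of genes with no read in one group depend on the prior count of the fit.

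By fold, the genes highest in CA1 relative to DG began with several that had no read in any ventral DG library. Npy, the peptide neuropeptide Y, was at 20.2, 20.1 and 20.05 CPM in CA1 and 0 in all 3 libraries of DG, at least 115-fold higher in CA1 when each DG library is set to a floor of 3 reads. On the same floor Irs4, an insulin receptor substrate, was at least 80.1-fold higher (14.01 ± 1.61 against 0 CPM), and Kctd12b, of the family of GABA-B receptor auxiliary subunits, at least 64.9-fold (11.3 ± 3.605 against 0 CPM). Npy is also made by interneurons, and their other markers were uneven in CA1. Sst and Slc32a1 stood at 1.43 and 0.805 CPM and Gad1 at 2.84 ± 0.714 CPM. Kcnc2 stood at 85.8 ± 18.5 CPM, and Gad2, given below, lay above Sst, Slc32a1 and Gad1. With Npy, the 18 interneuron markers summed to 115 to 155 CPM in CA1. The part of interneurons in the Npy level was not tested. Met, the receptor of hepatocyte growth factor, was at 63.4, 35.9 and 51.2 CPM in CA1 and 0.109, 0.193 and 0.2796 CPM in DG. Vegfd, a vascular growth factor, was at 47.9, 32.6 and 58.3 CPM in CA1 and 0.435, 0 and 0.0559 CPM in DG. Kit, the stem cell factor receptor, was at 373 ± 82.1 against 1.58 ± 0.355 CPM (227-fold), while Kitl, which encodes its ligand, was higher in DG (11.96 ± 9.59 against 81.9 ± 11.1 CPM), a call that was not made without the filter on low counts. In Hs3st2, a heparan sulfate sulfotransferase, the CA1 libraries ranged from 3.498 to 36.6 CPM.

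The 8 genes of highest level among those at least 4-fold higher in CA1 were Sv2b, Cpe, Rab3c, Rasgrp1, Itpr1, Opcml, Dkk3 and Hpca. Sv2b, a synaptic vesicle glycoprotein, was at 2139.7, 2323 and 2292 CPM in CA1 and 20.7, 18.6 and 19.2 CPM in DG (112-fold, adjusted p = 2.23e-14). Cpe, carboxypeptidase E, which trims peptide precursors in secretory granules, was at 1809, 1955 and 2348 CPM in CA1 and 116, 105 and 100.4 CPM in DG (18.5-fold). Rab3c, a small GTPase of vesicles, was at 1902 ± 307 against 223 ± 32.1 CPM. Rasgrp1, an exchange factor that activates Ras on calcium and diacylglycerol, was at 1695 ± 181 against 30.8 ± 6.57 CPM. Itpr1, the inositol trisphosphate receptor, was at 1127 ± 148 against 164 ± 16.04 CPM. Opcml, an adhesion molecule of the IgLON family, was at 1013 ± 81.3 against 131 ± 49.7 CPM. Per length, Cpe reached 1109 ± 132 against 63.01 ± 4.82 FPKM in the authors' values and Sv2b 485 ± 18.3 against 4.54 ± 0.288 FPKM.

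Several of the genes named for their fold in DG had no CA1 read. Gmnc, a regulator of centriole amplification, was at 49.9, 64.4 and 42.7 CPM in the DG libraries, at least 123-fold above the CA1 floor. Ntf3, the neurotrophin NT-3, was at 11.4, 26.9 and 19.7 CPM (at least 45.4-fold), Egfr, the epidermal growth factor receptor, at 17.7, 8.64 and 34.5 CPM (at least 47.7-fold), and Sema5b, a semaphorin, at 27.4, 21.1 and 18.1 CPM (at least 52.2-fold). Prox1os, listed as an antisense partner of Prox1, was at 11.9, 19.3 and 8.4998 CPM; strand use in counting is not given in the sources used here, so its reads cannot be told apart from those of Prox1. By level, Rfx3, a winged helix factor of ciliary genes, stood at 167, 165 and 165 CPM in CA1 and 1397, 1823 and 1559 CPM in DG. Sema5a was at 14.03, 5.71 and 3.94 CPM in CA1 and 725, 772 and 839 CPM in DG. Fat4, a giant cadherin, was at 138 ± 28.2 against 759 ± 50.5 CPM. Btbd3, which steers dendrites, was at 75.8 ± 12.4 against 694 ± 121 CPM. Acvr2a, an activin receptor, was at 95.5 ± 11.7 against 590.3 ± 91.8 CPM. Ahcyl2, a relative of adenosylhomocysteinase, was at 82.6 ± 19.7 against 568 ± 38.7 CPM and Pter, a phosphotriesterase-related protein, at 155 ± 13.5 against 826 ± 152 CPM. Absence of overlap between the groups was a condition for naming these genes.

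Of 77 neural transcription factors tested, 25 were higher in CA1 and 31 in DG, so that 72.7% were called, beside 27% of all genes. On the CA1 side stood Neurod6 with Meis2, a homeobox cofactor, at 94.8 ± 14.2 against 0.562 ± 0.119 CPM, and Sox5 at 71.5 ± 2.36 against 1.92 ± 1.13 CPM. Fezf2, a factor of subcerebral projection neurons, was at 60.1 ± 16.1 against 1.78 ± 0.381 CPM and Etv1 at 672 ± 128 against 92.8 ± 18.5 CPM. Foxp1 (273 ± 12.3 against 64.9 ± 7.44 CPM) and Bcl11a (151 ± 20.3 against 55.97 ± 9.34 CPM) were higher in CA1 by smaller folds. On the DG side Mef2c, a regulator of activity-dependent genes, was at 24.2, 31.7 and 17.8 CPM in CA1 and 476, 603 and 521 CPM in DG (22.6-fold). Foxo1, a target of insulin signalling, was at 13.3 ± 11.5 against 286 ± 64.96 CPM. Zbtb20, a zinc finger repressor needed for hippocampal identity, was at 795 ± 91.4 against 1956 ± 151 CPM (2.54-fold). Nuclear factor I genes Nfia (130.0 against 265 CPM) and Nfib (312 against 671 CPM) were also higher in DG, though Nfia was not called from FPKM values with limma. The median log2 difference of the 77 was -0.37, beside -0.05 for all genes tested. Of the 56 factors called, 30 were called in the same direction between the dorsal populations, beside 34.7% of all ventral calls.

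**Figure D3:**
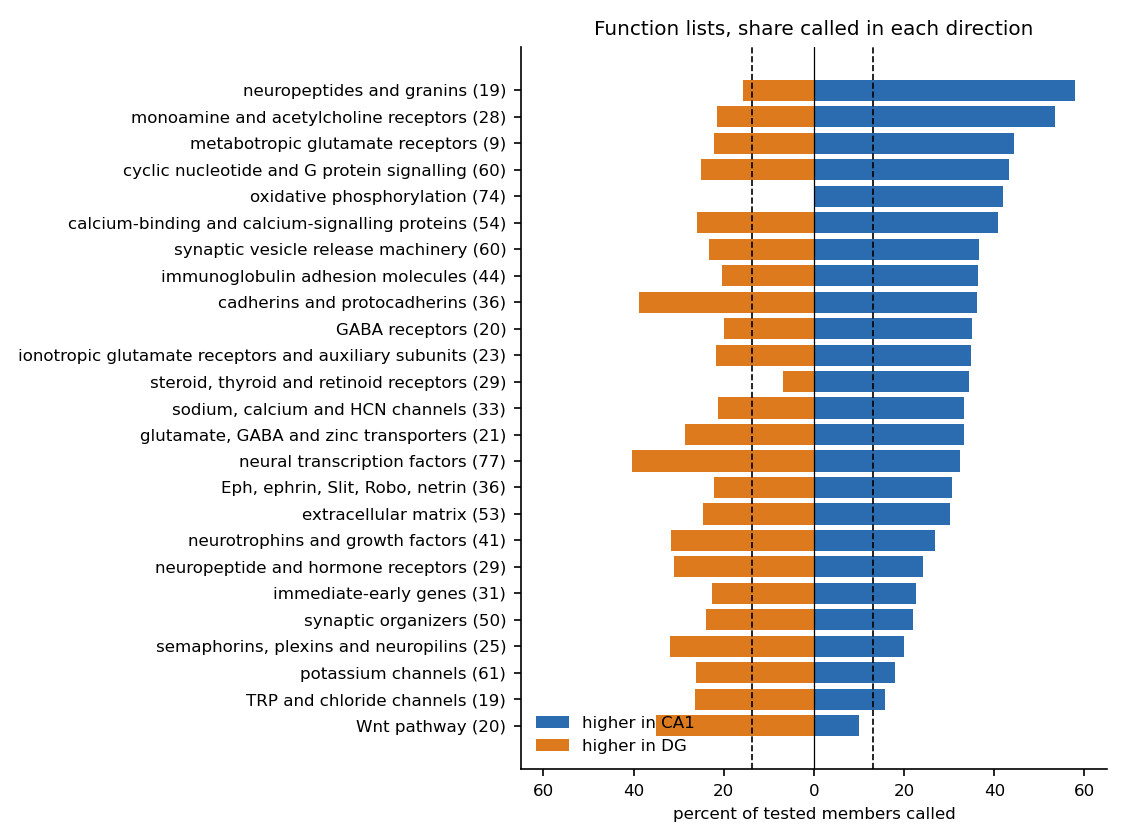
Share of tested members called higher in CA1 (blue, to the right) and higher in DG (orange, to the left) for each of the function lists, with the number tested after each name. Dashed lines mark the shares over all genes tested, 13.2% and 13.7%. Oxidative phosphorylation is the list with no member higher in DG.

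Within families of ion channels, subunits went in both directions. Of 61 genes for potassium channels, 11 were higher in CA1 and 16 in DG (median log2 difference -0.14). For this and the list counts below, 27% of all genes tested were called, 13.2% higher in CA1 and 13.7% in DG. Kcnq5, a subunit of M-current channels, was higher in CA1, at 42.8, 28.9 and 32.7 CPM in CA1 and 3.48, 4.705 and 2.796 CPM in DG. So was Kcnt2, of the sodium-activated channels (152 ± 30.8 against 43.2 ± 12.01 CPM). The fast Kv3 subunits split, with Kcnc2 higher in CA1 (85.8 ± 18.5 against 11.3 ± 5.82 CPM) and Kcnc1 higher in DG (24.4, 40.7 and 37.2 CPM in CA1 and 119.9, 123 and 118 CPM in DG), along with Kcnc4 (43.5 against 111 CPM). Kcnj2, an inward rectifier that keeps the resting potential negative, was 35.8-fold higher in DG (2.76, 2.03 and 0.116 CPM in CA1 and 37.4, 70.1 and 59.6 CPM in DG). The A-type subunit Kcnd3 was higher in DG (138 ± 51.7 against 337 ± 28.8 CPM). The voltage- and calcium-gated Kcnma1 did not pass the test (237 ± 18.4 against 201 ± 9.05 CPM).

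Of 33 sodium, calcium and HCN channel genes, 11 were higher in CA1 and 7 in DG (median log2 difference 0.26). Pex5l, the TRIP8b protein that moves HCN channels in dendrites, was higher in CA1 (422, 515 and 431 CPM in CA1 and 129.7, 151 and 146 CPM in DG). Sodium channels divided. Scn2a (972 ± 44.5 against 531 ± 60.6 CPM) and Scn8a (792 ± 62.1 against 438 ± 42.97 CPM) were higher in CA1. Scn3a (73.6 ± 4.43 against 265 ± 49.9 CPM) and Scn9a (4.51, 8.47 and 4.17 CPM in CA1 and 104, 123 and 111 CPM in DG) were higher in DG. L-type calcium channels Cacna1c (126 against 233 CPM) and Cacna1d (53.4 against 93.9 CPM, not called from FPKM values) were higher in DG, and the presynaptic N-type Cacna1b (262 against 143 CPM) in CA1. Among 19 TRP and chloride channel genes, 3 were higher in CA1 and 5 in DG (median log2 difference 0.22), and here close relatives went opposite ways. Trpc4 was at 176, 178 and 179.7 CPM in CA1 and 29.6, 37.96 and 14.7 CPM in DG and Trpc5 at 107 ± 7.96 against 25.2 ± 7.85 CPM, both higher in CA1. Trpc6 was at 0.376, 0.368 and 0.116 CPM in CA1 and 77.6, 62.4 and 80.4 CPM in DG, 267-fold higher in DG, and Trpm3 at 14.9 ± 7.34 against 201 ± 20.1 CPM. Ano3, of the anoctamin family, was at 191 ± 38.6 against 713 ± 58.7 CPM, higher in DG.

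Ionotropic glutamate receptors and their partners were called in 13 of 23 cases, 8 higher in CA1 and 5 in DG (median log2 difference 0.32). AMPA receptor subunits were higher in CA1 by small folds: Gria2 was at 2729.9, 2585 and 2559 CPM in CA1 and 1611, 1633 and 1819.5 CPM in DG (1.51-fold, adjusted p = 1.06e-04). Gria1 was at 1173 ± 128 against 748 ± 31.2 CPM and Gria3 at 662 ± 57.7 against 475 ± 37.5 CPM. Per length the order held, with Gria2 at 445 ± 19.4 against 299.5 ± 21.2 FPKM. Grin3a, an NMDA receptor subunit that lowers calcium entry, was at 233 ± 7.78 against 60.6 ± 17.2 CPM, higher in CA1. Grin1, the subunit shared by all NMDA receptors, did not pass the test (209 ± 24.998 against 189 ± 17.9 CPM). Grin2b, called higher in CA1 in counts (1145 ± 68.96 against 743 ± 54.1 CPM), was at 219 ± 10.8 against 296 ± 48.7 FPKM per length. It went the other way there and was called higher in DG from FPKM values with limma (adjusted p = 0.0408 and 0.0398 with pseudocounts of 1 and 0.1), so its direction was not settled. Among kainate receptor genes, Grik2 was at 112, 158 and 101 CPM in CA1 and 302, 381 and 337 CPM in DG, Grik3 at 16.3 ± 6.37 against 55.6 ± 11.6 CPM and Grik4 at 11.96 ± 4.54 against 34.5 ± 6.79 CPM. These 3 were higher in DG, Grik4 in counts but not called from FPKM values, while Neto2, a kainate receptor partner, was higher in CA1 (55.1 ± 10.1 against 9.07 ± 3.04 CPM). Shisa9, the AMPA receptor partner CKAMP44, was higher in DG (26.6 ± 3.098 against 86.8 ± 7.44 CPM).

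Of 9 metabotropic glutamate receptor genes and Homer scaffolds, 4 were higher in CA1 and 2 in DG (median log2 difference 0.91). Homer2 was at 152, 128 and 141 CPM in CA1 and 9.63, 13.5 and 16.7 CPM in DG (10.2-fold). Grm3 was at 18.5 ± 7.66 against 2.18 ± 1.18 CPM. Both were higher in CA1. Grm2, a presynaptic brake on mossy fibre release, was higher in DG at 17.5, 12.5 and 12.9 CPM in CA1 and 47.6, 66.9 and 33.1 CPM in DG, beside 0.132 CPM in dorsal CA1 and 181 CPM in dorsal DG (interaction log2 8.59, adjusted p = 1.28e-07).

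GABA receptor genes were called in 11 of 20 cases, 7 higher in CA1 and 4 in DG (median log2 difference 0.22). Gabra3 was at 132, 97.8 and 154 CPM in CA1 and 1.09, 1.096 and 1.398 CPM in DG (103-fold), and Gabra5, of extrasynaptic receptors, was at 412 ± 64.5 against 189 ± 57.8 CPM. Gabra4 (81.2 ± 16.7 against 172 ± 28.4 CPM), which forms tonic receptors of granule cells with Gabrd, was higher in DG. Gabrd was at 3.08 ± 2.76 against 11.1 ± 1.91 CPM, called with all 6 libraries but with adjusted p-values up to 0.121 when single libraries were left out. Higher in DG as well was Glra2, a glycine receptor subunit, at 1.002, 1.105 and 1.74 CPM in CA1 and 23.8, 43.1 and 21.6 CPM in DG.

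Receptors of monoamines, acetylcholine, adenosine and cannabinoids were called in 21 of 28 cases, 15 higher in CA1 and 6 in DG, and the median log2 difference was 1.30. Cnr1, the cannabinoid receptor, was at 326, 384 and 363 CPM in CA1 and 38.6, 48.5 and 38.3 CPM in DG (8.303-fold). Serotonin receptors split, with Htr5b at 41.8 ± 7.25 against 1.52 ± 0.335 CPM and Htr2c at 90.7 ± 43.4 against 4.41 ± 4.05 CPM higher in CA1. Htr1a (73.7 ± 18.9 against 131 ± 19.7 CPM) and Htr4 (8.29 ± 3.42 against 25.1 ± 6.08 CPM) were higher in DG. The dopamine receptor Drd5 was at 17.9 ± 7.27 against 0.215 ± 0.0479 CPM. The alpha adrenergic Adra1a was at 56.4 ± 9.34 against 7.203 ± 1.54 CPM. The adenosine receptor Adora1 was at 147 ± 9.78 against 61.96 ± 6.81 CPM. These 3 receptors were higher in CA1. Among nicotinic subunits, Chrna7 was higher in CA1 (38.2 ± 5.81 against 14.03 ± 5.86 CPM) and Chrna4 in DG (11.2, 13.6 and 30.1 CPM in CA1 and 46.6, 67.7 and 45.4 CPM in DG). Neither of these calls was made in the 18-library fit. Chrnb3 had reads in DG libraries only, at 16.04, 15.6 and 13.98 CPM.

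**Figure D4:**
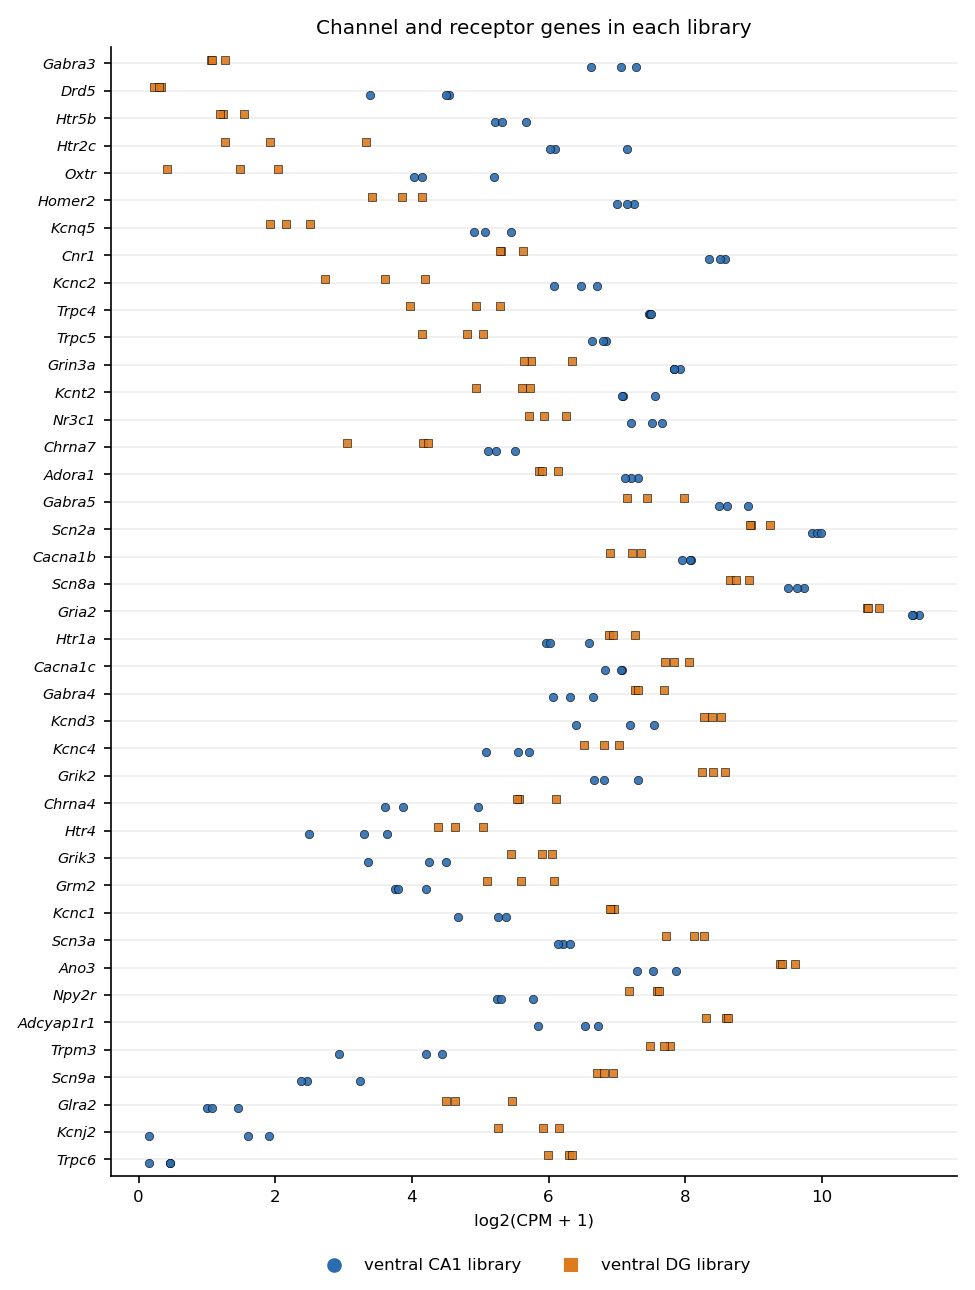
CPM of each library for channel and receptor genes named in the text, on a log2(CPM + 1) axis, ordered by the log2 difference; circles are ventral CA1 libraries and squares ventral DG libraries. Relatives differ in opposite directions, such as Trpc4 and Trpc6, and the replicates of a class lie close together except in a few genes of low level.

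Peptide precursors and the granins packed with them were higher in CA1 in 11 of 19 cases and in DG in 3 (median log2 difference 0.86). Cck, cholecystokinin, was at 752, 708 and 646 CPM in CA1 and 220.2, 233 and 257 CPM in DG, and per length at 1168 ± 108 against 425 ± 32.7 FPKM. The granin Chgb (389.5 ± 57.5 against 203 ± 37.04 CPM) and the convertase Pcsk2 (191 ± 12.3 against 102 ± 16.4 CPM) were higher with it. In DG the opioid precursors were higher, Penk at 9.02, 9.21 and 6.26 CPM in CA1 and 31.7, 51.04 and 50.5 CPM in DG and Pdyn at 0.626, 0.736 and 0.464 CPM in CA1 and 7.51, 15.5 and 9.45 CPM in DG. Pam, the enzyme that amidates peptides, was higher in DG too (87.2 ± 18.9 against 136 ± 2.47 CPM). Receptors were more evenly split, 7 of 29 higher in CA1 and 9 in DG (median log2 difference -0.84). Oxtr, the oxytocin receptor, was at 15.3, 16.8 and 35.7 CPM in CA1 and 1.79, 3.09 and 0.336 CPM in DG. Mchr1, the receptor of melanin-concentrating hormone, was at 11.8, 14.9 and 27.3 CPM in CA1 and 0.707, 1.48 and 0.336 CPM in DG. The delta opioid receptor Oprd1 was at 9.27 ± 0.703 against 0.0368 ± 0.0319 CPM. All 3 were higher in CA1. Higher in DG were Adcyap1r1, the PACAP receptor (91.7, 56.3 and 104 CPM in CA1 and 386, 395 and 317 CPM in DG), Npy2r, a presynaptic receptor of neuropeptide Y (53.5, 37.01 and 38.4 CPM in CA1 and 143, 192 and 195 CPM in DG), and the mu opioid receptor Oprm1 (0.5602 ± 0.227 against 7.399 ± 3.18 CPM). Npy1r did not pass the test, at 54.1 ± 20.7 against 72.7 ± 13.5 CPM.

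Steroid, thyroid and retinoid receptors and related enzymes were called in 12 of 29 cases, 10 higher in CA1 and 2 in DG (median log2 difference 0.37). Nr3c1, the glucocorticoid receptor, was at 181, 200.3 and 146 CPM in CA1 and 51.4, 75.5 and 59.9 CPM in DG (2.74-fold), whereas Nr3c2, the mineralocorticoid receptor, did not pass the test (263 ± 31.99 against 197 ± 29.02 CPM). Crym, which binds thyroid hormone in the cytosol, was at 266 ± 32.3 against 114 ± 5.73 CPM, higher in CA1, and Rbp4, a retinol carrier, at 0.942 ± 0.771 against 8.13 ± 0.169 CPM, higher in DG.

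Growth factors and their receptors were called in 24 of 41 cases, 11 higher in CA1 and 13 in DG (median log2 difference 0.17). Beside Met and Kit, the heparin-binding factor Ptn was higher in CA1 at 120.3, 93.3 and 39.7 CPM in CA1 and 2.56, 1.16 and 2.57 CPM in DG. Ntrk2, the receptor of BDNF, was higher in CA1 as well (382 ± 19.9 against 231 ± 48.5 CPM), though not called from FPKM values with limma. Bdnf itself was higher in DG (40.5 ± 16.3 against 77.5 ± 10.8 CPM), though not called without ventral CA1 replicate 3 (adjusted p = 0.0561). Higher in DG as well were Ntf3, the binding protein Igfbp5 (35.6, 31.7 and 30.9 CPM in CA1 and 509.9, 566 and 531 CPM in DG) and the GDNF family receptor Gfra2 (6.39, 9.02 and 3.82 CPM in CA1 and 87.5, 129 and 145 CPM in DG). In the Wnt pathway 2 of 20 genes were higher in CA1 and 7 in DG (median log2 difference -1.06). Rspo2, which amplifies Wnt signals, was at 37.3, 89.8 and 68.02 CPM in CA1 and 0.218, 0.838 and 0.671 CPM in DG. Dkk3, a member of the Dickkopf family, was at 715 ± 75.02 against 11.6 ± 2.44 CPM. Both were higher in CA1. Frzb, a secreted Wnt antagonist (9.04 ± 4.22 against 56.04 ± 9.83 CPM), and Znrf3, which removes Frizzled receptors (22.6 ± 2.21 against 70.6 ± 10.2 CPM), were higher in DG.

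Guidance and adhesion genes were called in both directions. Of 36 genes for Eph receptors, ephrins, Slits, Robos and netrins, 11 were higher in CA1 and 8 in DG (median log2 difference 0.14), with Epha5 at 121 ± 17.97 against 24.6 ± 5.801 CPM and Robo1 at 86.3 ± 8.88 against 21.4 ± 3.34 CPM on the CA1 side. On the DG side were Efnb3 at 63.2 ± 2.303 against 140.4 ± 11.1 CPM and Dscam at 59.2 ± 12.2 against 133 ± 9.804 CPM. Of 25 semaphorins and their receptors, 5 were higher in CA1 and 8 in DG (median log2 difference -0.19). Sema3e was at 237, 245 and 225 CPM in CA1 and 12.02, 12.6 and 17.2 CPM in DG. Plxna1 was at 161 ± 47.4 against 27.7 ± 6.07 CPM, and both were higher in CA1. Sema5a, Sema5b and the receptor Nrp2 (14.03, 23.6 and 29.3 CPM in CA1 and 150.2, 128 and 117 CPM in DG) were higher in DG. Of 36 cadherins, 13 were higher in CA1 and 14 in DG (median log2 difference -0.14). Pcdh7 (169.5, 169.6 and 184 CPM in CA1 and 13.9, 8.31 and 16.6 CPM in DG) and Cdh20 (27.8 ± 5.31 against 0.937 ± 0.572 CPM) were higher in CA1. Cdh13 (8.02, 9.39 and 7.07 CPM in CA1 and 128, 169 and 165 CPM in DG) and Cdh9 (12.4 ± 3.47 against 197 ± 24.01 CPM), which joins mossy fibres to CA3, were higher in DG.

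Synaptic organizers were called in 23 of 50 cases, 11 higher in CA1 and 12 in DG, with a median log2 difference of 0.02 that was -0.00139 with total reads and no scaling factor. Adgrl2, a latrophilin that places entorhinal synapses on CA1 dendrites, was at 145, 166 and 133 CPM in CA1 and 2.88, 3.74 and 2.405 CPM in DG (47.7-fold). Tenm3, a teneurin that guides CA1 axons, was at 252 ± 49.5 against 36.3 ± 6.96 CPM. Lrrtm4, an organizer of granule cell excitatory synapses, was at 9.396, 11.97 and 12.6 CPM in CA1 and 85.9, 131 and 132 CPM in DG. Il1rap was at 17.2 ± 4.81 against 189 ± 25.2 CPM, and both were higher in DG. C1ql2 and C1ql3 (118 ± 11.7 against 375 ± 25.1 CPM), which mossy fibres secrete onto CA3, were higher in DG. Neurexin Nrxn3 was higher in DG (104 ± 6.04 against 204 ± 25.2 CPM), and Nlgn1 did not pass the test (222 ± 14.1 against 164 ± 33.9 CPM). Among 44 adhesion molecules of the immunoglobulin family, 16 were higher in CA1 and 9 in DG (median log2 difference 0.29), led by L1cam (376 ± 5.66 against 105 ± 10.6 CPM) and Chl1 (1167 ± 22.9 against 424 ± 29.3 CPM) in CA1. On the DG side were Negr1 (335 ± 96.3 against 971 ± 70.3 CPM) and Igsf3 (3.25 ± 1.21 against 43.6 ± 4.302 CPM). Of 53 matrix genes, 16 were higher in CA1 and 13 in DG (median log2 difference -0.19). Ccn3 was at 448, 418 and 383 CPM in CA1 and 2.45, 2.84 and 2.96 CPM in DG. Dcn, the proteoglycan decorin, was at 349 ± 84.3 against 77.1 ± 13.96 CPM, with 1.11 CPM in dorsal CA1. Npnt, an integrin ligand, was at 2.76, 2.76 and 4.404 CPM in CA1 and 61.8, 136 and 94.95 CPM in DG. Adamts1, a protease, was at 1.55 ± 0.886 against 67.2 ± 15.05 CPM. Both were higher in DG.

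The release machinery was called in 36 of 60 cases, 22 higher in CA1 and 14 in DG (median log2 difference 0.23). Besides Sv2b and Rab3c, the CA1 side held Cadps2, which primes dense-core vesicles (345, 379 and 349 CPM in CA1 and 33.8, 32.2 and 24.3 CPM in DG), and the calcium sensor Syt1 (1927 ± 46.8 against 707 ± 34.6 CPM). The DG side held the other vesicle glycoprotein Sv2c (3.202 ± 2.05 against 89.9 ± 8.54 CPM), Synpr, the synaptoporin of mossy fibres (2.51, 2.95 and 5.56 CPM in CA1 and 249.5, 298 and 361 CPM in DG), Rph3a, rabphilin (8.64 ± 2.32 against 223 ± 6.53 CPM), and Syt7, a slow calcium sensor (65.5 ± 5.53 against 231 ± 20.1 CPM). Among calcium-binding and calcium-signalling proteins, 22 of 54 were higher in CA1 and 14 in DG (median log2 difference 0.43). Itpr1, Camk4 (608 ± 69.5 against 183 ± 36.2 CPM) and the sensor Hpca (699 ± 97.3 against 142 ± 5.31 CPM) were higher in CA1. Ncald, neurocalcin (6.64, 8.84 and 3.59 CPM in CA1 and 336, 314 and 305 CPM in DG), the pump Atp2b4 (138 ± 48.5 against 501 ± 27.998 CPM) and the release channel Ryr2 (500.2 ± 78.8 against 951 ± 11.5 CPM) were higher in DG. Camk2a did not pass the test, at 1597 ± 76.8 against 1764 ± 111 CPM.

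Enzymes of second messengers were called in 41 of 60 cases, 26 higher in CA1 and 15 in DG (median log2 difference 0.25). The protein kinase C gene Prkcb (427, 588 and 549 CPM in CA1 and 20.3, 44.2 and 35.2 CPM in DG) and the phosphodiesterase Pde1a (1220.5 ± 134 against 339 ± 37.6 CPM) were higher in CA1. The catalytic subunit of protein kinase A Prkacb (245, 277 and 247 CPM in CA1 and 736, 848 and 805 CPM in DG), the calcium-stimulated cyclase Adcy1 (239 ± 52.9 against 579 ± 53.97 CPM) and the phosphodiesterases Pde1b (7.39 ± 1.64 against 69.8 ± 7.28 CPM) and Pde7b (7.54 ± 4.796 against 171 ± 18.5 CPM) were higher in DG. Of 31 immediate-early genes, 7 were higher in each direction (median log2 difference -0.26). Fos was at 4.64, 2.03 and 3.36 CPM in CA1 and 31.98, 39.5 and 13.8 CPM in DG. Jun was at 75.8 ± 22.3 against 246 ± 20.1 CPM and Btg2 at 5.65 ± 5.31 against 52.03 ± 15.2 CPM, and these 3 were higher in DG. The phosphatase Dusp6 (98.2, 105 and 68.1 CPM in CA1 and 4.35, 4.898 and 4.47 CPM in DG) and the orphan receptor Nr4a2 (132 ± 20.6 against 42.7 ± 9.998 CPM) were higher in CA1. Arc (27.3 ± 10.1 against 14.9 ± 7.16 CPM), Egr1 (126 ± 21.3 against 110.4 ± 30.99 CPM) and Npas4 (18.2 ± 18.4 against 50.8 ± 16.8 CPM) did not pass the test.

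Transporters of glutamate, GABA and zinc were called in 13 of 21 cases, 7 higher in CA1 and 6 in DG (median log2 difference 0.35). Slc17a7, which loads vesicles with glutamate, did not pass the test (698 ± 46.7 against 554 ± 113 CPM). Slc30a3, which loads zinc into mossy fibre vesicles, was at 22.05, 22.6 and 22.02 CPM in CA1 and 84.5, 73.1 and 77.1 CPM in DG (3.63-fold higher in DG). Gad1, an enzyme that makes GABA, was 17.7-fold higher in DG at 3.13, 2.03 and 3.36 CPM in CA1 and 39.6, 53.8 and 55.2 CPM in DG. The vesicular GABA transporter Slc32a1 had no read in any DG library and 0.805 CPM in CA1, and Gad2 was at 12.9 ± 1.54 against 3.75 ± 3.697 CPM. Gad1 thus stood high in DG in the same libraries in which Slc32a1, Pvalb and Vip were at or near 0.

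Nuclear genes of oxidative phosphorylation were the one function list that was called in one direction alone. Of 74 tested, 31 were higher in CA1, none in DG, and 43 were not called, with a median log2 difference of 0.59 beside -0.05 for all genes. Over all genes tested, 13.2% were higher in CA1 and 13.7% in DG. The count higher in DG was 0 also at an unadjusted p under 0.05 in edgeR and with DESeq2. Ndufa5, of complex I, was at 68.5, 48.8 and 51.6 CPM in CA1 and 10.7, 19.01 and 14.8 CPM in DG (3.69-fold). Atp5a1, of the ATP synthase, was at 696 ± 58.6 against 375 ± 8.48 CPM (1.804-fold). Cox5b, of cytochrome oxidase, was at 134 ± 11.9 against 61.96 ± 11.1 CPM. The share of reads from the mitochondrial genome went the other way, 11.3% to 12.9% in CA1 and 15.8% to 20.7% in DG, and the share of reads outside annotated genes was also higher in DG; their part in the list's difference was not tested. Between the dorsal populations 1 of the 31 was called in the same direction, beside 34.7% of all ventral calls. By the interaction 13 of the 74 differed between the poles, beside 7.18% of all genes tested for it.

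The same classes were sampled at the dorsal pole in separate libraries, so the class difference could be set beside one from other samples. Depth was unequal in the opposite direction there. Dorsal CA1 libraries held 25598672, 30077876 and 22115411 gene reads and dorsal DG libraries 7851916, 6778469 and 6870969. With the dorsal libraries thinned to equal depth, an alternative chosen after seeing the data, 2124 genes were called. The part of depth in the interaction was not tested. Between dorsal CA1 and dorsal DG 2220 of 12288 genes were called (18.1%), 1125 higher in CA1 (9.16%) and 1095 in DG (8.91%), and 1015 to 1064 genes were called when any one dorsal CA1 library was left out. Of 3137 genes called in the ventral comparison and tested in the dorsal one, 2629 had the same sign and 508 the opposite sign. Called in both with the same direction were 1203, which is 34.7% of the ventral and 54.2% of the dorsal calls, and 50 were called in opposite directions. The interaction of class and pole, which tests whether the class difference itself changed, was called for 996 of 13871 genes (7.18%), 491 positive (3.54%), meaning a log2 difference shifted towards CA1 at the ventral pole, and 505 negative (3.64%). With single libraries left out the interaction count ran from 616 (without ventral CA1 replicate 3) to 1508 (without dorsal DG replicate 3), and the 18-library fit gave 1510. Among genes of the ventral comparison's 3466 calls, 540 had a called interaction.

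**Figure D5:**
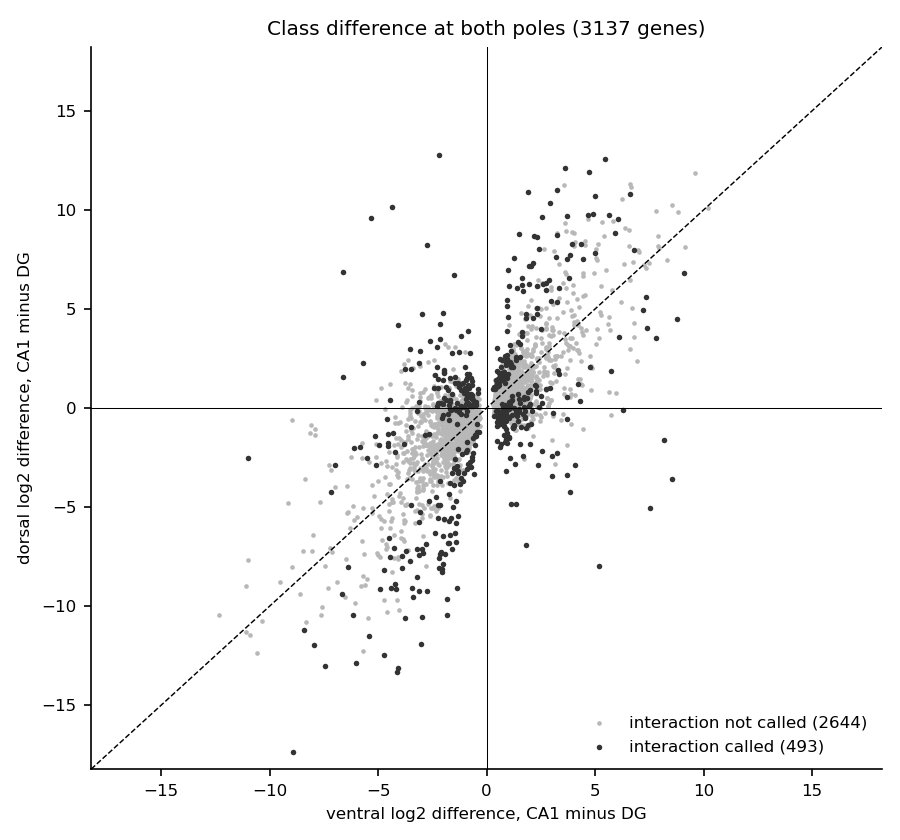
Log2 difference, CA1 minus DG, between the ventral populations (x axis) and between the dorsal populations (y axis) for the 3137 genes called in the ventral comparison and tested in the dorsal one. Dark points have a called interaction of class and pole, and the dashed line marks equal differences; most points lie in the quadrants of equal sign, 2629 of 3137.

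Among the 8 genes named for the size of their interaction, Rflnb and Car2 were called in opposite directions at the poles. Npy had no read in dorsal CA1 and 2.89 ± 2.94 CPM in dorsal DG, where its difference could not be tested for lack of reads (interaction log2 19.60 ± 2.29 SE, adjusted p = 3.77e-04). Rflnb, a refilin that binds filamins, was at 4.92 ± 4.18 against 0.126 ± 0.172 CPM ventrally and at 0.138 ± 0.167 CPM in dorsal CA1 and 36.8 ± 10.1 CPM in dorsal DG (interaction log2 13.18, adjusted p = 7.60e-05); its ventral difference was not called without ventral CA1 replicate 3 (adjusted p = 0.0678). Car2, carbonic anhydrase 2, was higher in DG ventrally (2.29 ± 0.613 against 10.2 ± 2.46 CPM) but at 52.4 ± 7.68 CPM in dorsal CA1 and 0 CPM in dorsal DG (interaction log2 -14.72, adjusted p = 1.22e-06). Adamts9, a protease, and Scn7a, a sodium channel relative, had no read in dorsal DG and were at 33.9, 35.8 and 34.6 and 50.4, 25.4 and 38.6 CPM in ventral DG. Levels near 0 in a group make such interactions depend on the prior count, so their sizes are not bounds.

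For Rasgrp1 and Ano3 the interaction was smaller but resolved. The lowest of their means in both classes at both poles was 30.8 ± 6.57 CPM, for Rasgrp1 in ventral DG. Rasgrp1 was at 2856 ± 177 CPM in dorsal CA1 and 749 ± 46.7 CPM in dorsal DG, so a ventral log2 difference of 5.74 stood beside a dorsal one of 1.86 (interaction log2 3.86 ± 0.19, adjusted p = 1.39e-08). Ano3, higher in DG ventrally, was at 399 ± 49.7 CPM in dorsal CA1 and 272 ± 12.95 CPM in dorsal DG (interaction log2 -2.45, adjusted p = 2.74e-06). Htr1a, higher in DG ventrally except in the 18-library fit, where it was not called, was higher in CA1 dorsally, at 171 ± 27.8 CPM in dorsal CA1 and 11.1 ± 7.02 CPM in dorsal DG (interaction log2 -4.77, adjusted p = 2.47e-05). Igfbp5 (interaction log2 9.002, adjusted p = 1.39e-08) and Lrrtm4 (6.09, adjusted p = 1.52e-07) had a larger DG excess dorsally, where CA1 was at 0.03002 and 0.254 CPM. In dorsal CA1 libraries 3 reads were worth 0.0993 to 0.135 CPM, so the sizes of both also depend on the prior count. For Sema3e (-0.17, adjusted p = 0.929), Rfx3 (-0.18, adjusted p = 0.572) and Cpe (-0.01, adjusted p = 1) the interaction log2 was not called.

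Levels in ventral CA3, the pyramidal cells between DG and CA1 in the circuit, are set beside those of the leading genes without a test. Some CA1 genes were shared with CA3: Sv2b was at 2214 CPM there, Cpe at 2411 CPM and Neurod6 at 285 CPM, against 19.5, 107 and 3.698 CPM in DG. Others were low in both CA3 and DG: Mpped1 was at 1.82 CPM in CA3, Adgrl2 at 2.76 CPM and Ccn3 at 4.01 CPM. On the DG side Prox1 was at 0.633 CPM in CA3 and Glis3 at 0.0227 CPM, while Ncald was at 209 CPM and Sema5a at 212 CPM, between CA1 and DG.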

How the data were processed

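The authors deposited raw read counts per Ensembl gene for 48 libraries and FPKM values per sample; per the submitters' processing notes, TopHat2 2.0.6, Cuffdiff 2.1.1, HTSeq and DESeq2 were used with builds NCBIM37 and mm9. Whether counting used strand is not given in the sources used here. Of 37620 genes, 32897 were paired with a name; 92 ERCC rows and 5 summary rows stayed out of totals and tests. Of 1809552 deposited FPKM values, 552 were marked as failed and left out.

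Counts of ventral CA1 and ventral DG were tested in edgeR 4.0.16 (R 4.3.3) with TMM scaling, filterByExpr (minimum count 10) and the quasi-likelihood test, adjusted by the Benjamini-Hochberg method over all genes tested and called under 0.05. The dorsal comparison and the 12-library interaction were fitted likewise. Alternatives used DESeq2 1.42.0, limma 3.58.1 on log2(FPKM + pseudocount), other filters and scalings, and single libraries left out. The tests were tried on simulated counts with known changes. CPM values were scaled over 18 libraries of dorsal and ventral CA1, CA3 and DG; errors are SD with n = 3, and SE for log2 differences. Lower bounds of folds set a library without reads to 3 reads, which covers counting error only.

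The members and gene lists were chosen with earlier results of these data known. Genes were named by fold (12 per direction), by level (8 per direction, at least 4-fold apart), as label genes, by interaction (4 per sign), or as the up to 3 members of smallest p per list and direction, with a minimum of 10 CPM and no overlap between groups. Another 65 tested genes were named outside this rule, after their values were seen. Some genes that the rule names are not reported here. Count columns were matched to groups by name, and their replicate numbers only name libraries. Where replicates are not from separate animals, p-values measure only the spread between these libraries.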

Additional observations from a re-analysis of the deposited data

Results flagged for a closer look

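The difference between CA1 and DG was not the same at both poles for 996 genes, by the interaction of class and pole in edgeR's quasi-likelihood test over 12 libraries. The values below are interaction log2 differences, the ventral CA1-minus-DG difference less the dorsal one, of genes named above, each with an adjusted p under 0.05. Where a group had no or almost no reads, the size depends on the prior count of the fit and is no bound. No explanation of these differences was tested.

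Some genes were higher in DG at the ventral pole and had a difference of the opposite sign at the dorsal pole. These were Car2 (-14.7), Calb2 (-10.8), the vesicular glutamate transporter Slc17a6 (-7.72), Htr1a (-4.77), Chrna4 (-4.37), Nrxn3 (-3.08), Ano3 (-2.45) and Pam (-1.36). The ventral calls of Calb2, Htr1a, Chrna4 and Pam were not made in the 18-library fit. Adamts9 (-11.4) and Scn7a (-9.82) were higher in ventral DG and had too few reads to be tested between the dorsal populations.

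Others were higher in CA1 ventrally with the opposite sign dorsally, namely Rflnb (13.2), the opioid receptor Oprd1 (12.6), Drd5 (6.38), Grm3 (5.42) and Kcnt2 (2.25). Npy (19.6), Irs4 (13.3), Kctd12b (11.9), Hs3st2 (9.12), Cdh20 (4.81) and Adra1a (3.9) were higher in ventral CA1 and were not tested between the dorsal populations for lack of reads. Gad2 (7.57) and Slc17a7 (0.901) were not called ventrally and had opposite signs at the poles.

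A difference in favour of DG was larger at the dorsal pole for many identity and synaptic genes. Among them were the granule markers Prox1 (8.21), Stxbp6 (6.8), Dsp (5.48) and Npnt (4.16), and the matrix and peptide genes Igfbp5 (9) and Pdyn (4.89). Receptors and channels with the same pattern were Grm2 (8.59), Grik3 (7.81), Kcnc4 (7.66), Shisa9 (5.03), Kcnd3 (1.95) and Adcyap1r1 (1.5). Gad1 (8.92), Lrrtm4 (6.09), Pcp4 (5.83), Jun (3.93), Btg2 (3.86), Rph3a (3.43), Foxo1 (3.07), Sema5a (2.7) and Synpr (1.63) also had it. It was larger at the ventral pole for Kcnj2 (-3.75), Glra2 (-3.23), Gfra2 (-3.08), Adamts1 (-3), Acvr2a (-1.39), Ryr2 (-0.652) and Zbtb20 (-0.531).

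A difference in favour of CA1 was larger at the dorsal pole for Htr5b (-6.97), Kcnq5 (-4.41), Neurod6 (-4.21), Wfs1 (-4.19), Pde1a (-2.98), Dkk3 (-2.95), Cpne7 (-2.45), Pex5l (-2.03), Plxna1 (-1.53) and Sv2b (-1.21). It was larger at the ventral pole for Kit (4.31), Fibcd1 (4.27), Rasgrp1 (3.86), Pcdh7 (3.13), Mpped1 (2.31), Ccn3 (2.24), Opcml (1.9), Itpr1 (1.76), Homer2 (1.64), Epha5 (1.48) and Hpca (1.07).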

How the results depend on the processing

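Of the 191 genes named above and called between ventral CA1 and ventral DG, 141 kept their call and direction under all 17 other settings, and 44 of those that did not missed the test against a 2-fold change. The number of genes called was 3459 with DESeq2's size factors in edgeR, 3403 with total reads, 3927 without a filter, 3708 with at least 10 reads in every library of a group, 3877 with DESeq2, 2808 and 2885 from FPKM with pseudocounts of 1 and 0.1 and limma, and 3257 with libraries thinned to equal depth, an alternative chosen after seeing the data. The 18-library fit called 2605 genes, with 1116 higher in DG in place of 1766, and its interaction called 1510 genes, 792 of them negative. Against a 2-fold change 1121 genes passed, 481 higher in CA1 and 640 in DG. Leaving out single libraries gave 2701 to 3430 ventral calls (1414 to 1690 higher in CA1, 1281 to 1740 in DG), 1015 to 2614 dorsal calls (476 to 1381 higher in CA1, 537 to 1259 in DG) and 616 to 1508 interaction calls (321 to 689 positive, 295 to 821 negative). For the interaction count the lowest values came without ventral CA1 replicate 3 (616), dorsal CA1 replicate 1 (622), ventral DG replicate 3 (630) and dorsal CA1 replicate 2 (656), and the highest without dorsal DG replicates 2 (1499) and 3 (1508). The cause of these shifts was not tested. Same-numbered columns of the ventral groups did not deviate together (correlations of 0.00969, -0.0152 and -0.0425), so the numbers were not taken as pairs; with the number as a replicate block 3440 ventral, 1838 dorsal and 810 interaction genes were called, and of the genes named Calb2, Kitl and Stxbp6 were not. Grin2b changed sign in FPKM (-0.4231 and -0.4245 with pseudocounts of 1 and 0.1) and was called higher in DG there with limma (adjusted p = 0.0408 and 0.0398). Rflnb was not called from FPKM with a pseudocount of 1. Ndst4, a gene not called, changed sign in FPKM (-0.01489 and -0.01901) and without ventral CA1 replicate 1 or ventral DG replicate 2 (-0.159 and -0.0198, within a range of -0.159 to 0.2599 over single libraries left out). Depth limits low genes: 3 reads were worth up to 0.552 CPM in the shallowest CA1 library.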
